A study of Mus musculus with 18 samples.

Results

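Messenger RNA 3′ ends that lie at an annotated transcript end but carry no polyadenylation hexamer were described in differentiated mouse muscle cells. Isoforms were taken from both deposited tables where both ends were annotated, the gene was nuclear, the 3′ UTR had at least 40 nt, and the last 40 nt held neither AATAAA nor ATTAAA. This gave 590 of 3464 annotated isoforms in the polysome table (17.0%, Wilson 95% interval 15.8 to 18.3%) and 523 of 3321 in the decay table (15.7%, 14.5 to 17.0%), together 905 isoforms at 571 distinct 3′ ends. They are compared below with the 2874 and 2798 annotated isoforms whose last 40 nt held either hexamer. The study used TIF-seq2, a method that sequences the start and the end of each captured mRNA as a pair. The cells were primary myoblasts from gastrocnemius muscle (female, wild type), turned into myotubes by 24 h in 1 µM SCH772984, an ERK inhibitor. All groups share this genotype and differentiation. The polysome assay had a heavy (6 or more ribosomes), a light (2 to 5 ribosomes) and a ribosome-free sucrose gradient fraction, each from 2 mice after 5 min in 100 µg/ml cycloheximide, with 6 libraries in all. The decay assay sampled cells 0, 3, 6 and 12 h into a block of transcription by 7.5 µg/ml actinomycin D, each time point from 3 mice, which makes 12 libraries.

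Each table gives 1 coverage count and 1 derived value per isoform. This value is a translation efficiency (TE) for the polysome assay and a half-life for the decay assay, and the number of columns for a single library is 0. Fractions, times and mice therefore cannot be set against each other, no replicate spread can be given, and intervals of shares cover counting over isoforms only. Total coverage was 1601919 over 7123 isoforms in the polysome table and 3121491 over 6636 isoforms in the decay table. Neither derived value comes with a stated unit. The tables hold no gene names. A name was taken where the first 25 nt of an isoform's 5′ UTR matched 1 RefSeq promoter window on the same chromosome and strand, or was carried over from an isoform with the same 3′ end. This named 311 of the 590 members in the polysome table and 254 of the 523 in the decay table. Through these names 8 of 12 myotube marker genes were found in each table, among them Acta1, Ckm, Des and Myog. Myod1, Tnnt3, Mymk and Mymx were not found. Of the markers of satellite cells, fibroblasts, endothelium and macrophages 0 were found. Many isoforms stayed without a name, so a marker that was not found cannot be told from one that was not named. These counts therefore do not show that other cells were absent.

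In mammals a newly made transcript is cut and given its poly(A) tail by a protein complex in which CPSF30 and WDR33 bind AAUAAA a short distance upstream of the cut, while CstF binds U- or GU-rich sequence downstream of it. AUUAAA is the most common natural variant, and other single-base changes of the hexamer work less well in processing assays. Ends without any close match are also known, and they can rely on UGUA elements bound by CFIm or on other U-rich and A-rich sequence nearby. Histone mRNAs of dividing cells are a special case, since they end behind a stem-loop and have no poly(A) tail.

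Of the 12 members listed in both tables with the highest lower coverage, 11 show here what such ends look like. Their last 30 nt are given 5′ to 3′ as deposited, with the listed weaker variants of the hexamer in capitals and the isoform's ends in build GRCm39.
chr11:3467523-3477942 minus: agcgttttGATAAAttattggttttcaacg
Gpx3, chr11:54793752-54801202 plus: ccatctgcccAGTAAAggtctttctgcagc
chr2:25447915-25452093 plus: gctgtcaaacaaagcaaaccttgtaaagtg
Rab1b, chr19:5149235-5157007 minus: cccttggataagccaagggtttttgcaagg
chr11:54869937-54924240 minus: atctcaagacataccaaacctctgtctatg
chr2:174269288-174280767 minus: ttAAGAAAtgAGTAAAatatctggcttccc
Jpt1, chr11:115388181-115405210 minus: ttgcttaaAGTAAAcaatacccaccttttg
Myl9, chr2:156617377-156623577 plus: ggacagtctcttAATACAaggctgaacacc
chr3:88388456-88410614 minus: ccaaatcAATACActagttgtttccatccc
Nol12, chr15:78819157-78825065 plus: acctgggactgaagagaagtgtgaaactcc
Eif3g, chr9:20805646-20809896 minus: agaaagcttcAGTAAAcagactccaaatgc
Of these 11 ends, 7 held a listed variant, 4 of them AGTAAA and 2 of them AATACA, and in 4 ends none was found. All 11 lay within 3 nt of the annotated 3′ end.

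For comparison, the ends with a hexamer that were highest by the same rule are given with the hexamer in capitals.
Acta1, chr8:124618508-124621490 minus: gcATTAAAgccagccattctgttttgctcc
chr10:80644332-80649331 minus: accagcaAATAAAggccgtgttgtgacagc
Rplp2, chr7:141027564-141031262 plus: cctgcaAATAAAgtctttttatgtatcttg
The weaker variants of the members began in the same stretch as the hexamers or closer to the end. AGTAAA began 20 nt before the end in Gpx3 and Eif3g and 22 nt before it in Jpt1, and AATACA began 18 nt before it in Myl9 and 23 nt before it in the isoform on chromosome 3, against 23 nt for AATAAA in the isoform on chromosome 10, 24 nt in Rplp2 and 28 nt for ATTAAA in Acta1.

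These 11 members covered a wide range of translation and stability values. Gpx3, a secreted glutathione peroxidase, had a coverage of 3525 with a TE of 0.000718 in the polysome table and a coverage of 8881 with a half-life of 11.6 in the decay table. Both values lie within the quartiles of annotated ends with a hexamer, 0.000523 to 0.00107 for TE and 9.01 to 12.8 for half-life. Myl9, a regulatory light chain of myosin II, had a TE of 0.00106 and the longest half-life of the 11, 17.3. The lowest TE of the 11, 0.000428, belonged to the isoform on chromosome 3, which also had a long 3′ UTR of 925 nt. The highest TE, 0.00137, was that of the isoform starting at chr2:25447915, with a 3′ UTR of 169 nt and no listed variant. Eif3g, a subunit of the initiation factor eIF3, and Nol12, a nucleolar protein of ribosomal RNA processing, had short 3′ UTRs of 77 and 157 nt and TE values of 0.000958 and 0.0011. Rab1b, a GTPase of transport from the endoplasmic reticulum to the Golgi, had the longest 3′ UTR of the 11 (1171 nt), a TE of 0.000582 and a half-life of 10.97.

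Most members carried a weaker variant at the position where other ends carry the hexamer. At least 1 of the 11 listed weaker variants was present in the last 40 nt of 387 of 590 members in the polysome table (65.6%, 61.7 to 69.3%) and 366 of 523 in the decay table (70.0%, 65.9 to 73.7%). At ends with a hexamer the shares were 16.7% and 18.3%, in windows where the hexamer itself leaves less room. Among members with a 3′ UTR of at least 80 nt the share was 64.97% and 69.4% in the last 40 nt but 6.40% and 9.09% in the 40 nt before them. In those preceding 40 nt, ends with a hexamer had a variant in 7.64% and 11.3%. Farther upstream the variants were thus not more frequent in members than at other ends. Most members with a variant held 1 kind of it, 327 and 302 isoforms, against 57 and 60 with 2 kinds.

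AGTAAA was the most frequent variant, in 101 members of each table, which is 17.1% and 19.3% against 0.696% and 1.04% of ends with a hexamer. TATAAA followed with 62 and 68 members (10.5% and 13.0% against 2.23% and 2.32%). AATACA was found in 52 and 47 members, CATAAA in 44 and 41, AATATA in 40 and 35 and GATAAA in 33 and 25. Each of these was at least 4.72 times as frequent in members as at ends with a hexamer. TTTAAA, which differs from ATTAAA by 1 base, and AAGAAA stood apart. TTTAAA was in 5.93% and 9.94% of members against 5.15% and 6.22% of ends with a hexamer, and AAGAAA in 4.75% and 3.82% against 3.58% and 3.40%.

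The starts of the variants were sharply placed. Counted so that the last base is position 1, AGTAAA had its median start at 20 nt in both tables (quartiles 18 to 23 and 19 to 23 nt), and 97.0% and 98.0% of the AGTAAA members had it 15 to 30 nt before the end. AATACA began within 15 to 30 nt in all 52 and all 47 members that had it. In ends with a hexamer AATAAA had its median start at 21 nt (quartiles 19 to 24 nt in both tables), and 94.1% began within 15 to 30 nt in each. TTTAAA lay in that zone in 60% and 51.9% of its members and AAGAAA in 64.3% and 70.0%, so the variants nearest to their share at other ends were also the least sharply placed. Over distinct ends with a 3′ UTR of at least 100 nt, the starts of all weaker variants in members peaked at 20 nt, with 9.89% of 374 ends and 9.55% of 377 ends, and the hexamer of other ends peaked at the same position with 14.3% and 13.9%.

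**Figure D1:**
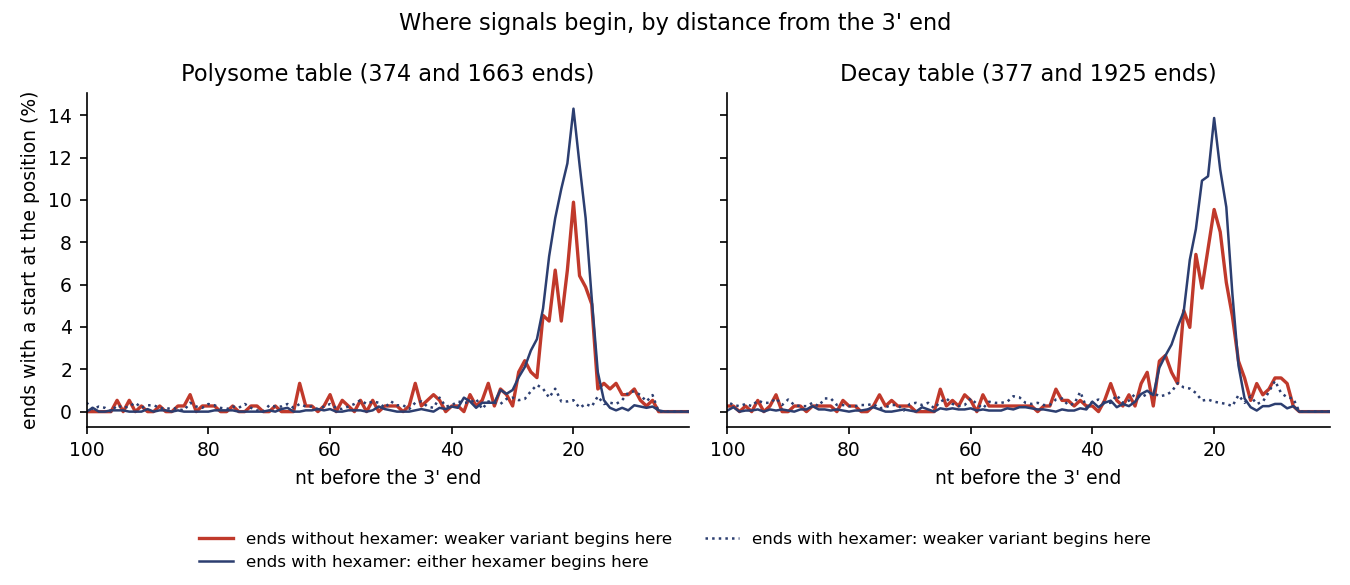
Start positions of weaker variants in ends without a hexamer (red), of AATAAA or ATTAAA in ends with a hexamer (solid blue) and of weaker variants in ends with a hexamer (dotted blue), as the percentage of distinct ends with a start at each distance (nt) before the 3′ end, for ends with a 3′ UTR of at least 100 nt. The red peak at 20 nt reaches 9.89% and 9.55% and stands at the same place as the blue peak of 14.3% and 13.9%, while the dotted line has no peak above 1.45%.

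Base composition around the end followed a similar layout with and without a hexamer. Adenine made up on average 28.6% and 29.5% of the last 40 nt in members and 32.1% and 33.1% at ends with a hexamer, a difference that the rule for choosing members sets in part, since both hexamers are rich in adenine. Between 15 and 30 nt before the end adenine reached 35.6% and 36.9% in members, against 43.6% and 44.5% at ends with a hexamer, and it was 20.8% and 22.2% in members 61 to 94 nt before the end. An adenine-rich zone was therefore present in members as well. Most members hold a weaker variant in this zone, and the variants themselves contain adenine. Members without a variant were not profiled by position, so adenine beyond the variant was not tested. Thymine averaged 30.3% and 31.2% in members against 30.6% and 31.5%. Its peak lay 8 nt before the end in members, with 47.1% and 47.7%, and 9 nt before the end with a hexamer, with 44.8% and 45.1%. Cytosine was higher in members, 22.0% and 20.8% against 19.4% and 18.4%.

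**Figure D2:**
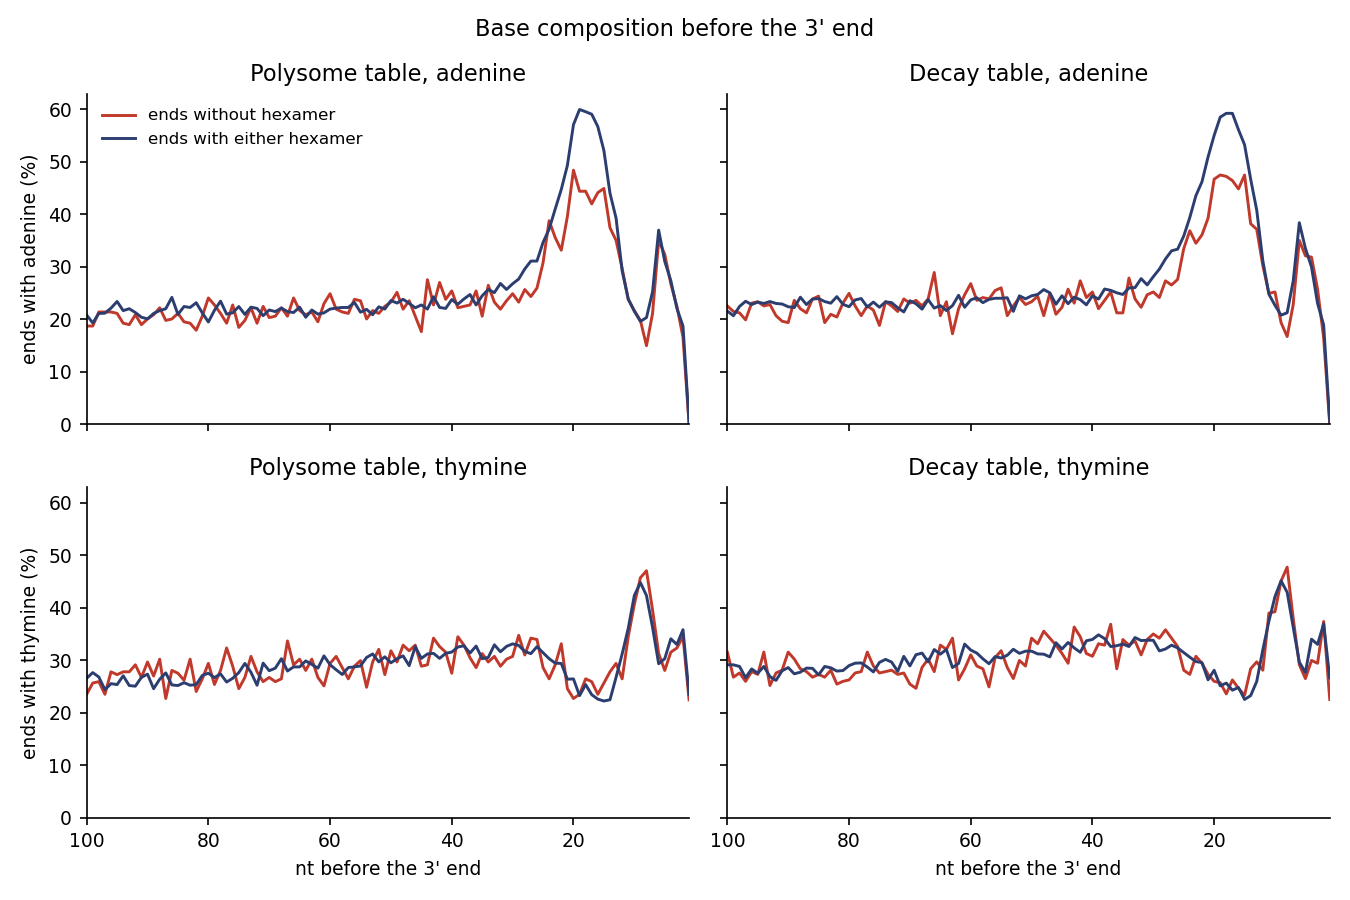
Percentage of distinct ends with adenine (top) or thymine (bottom) at each distance (nt) before the 3′ end, for ends without (red) and with (blue) a hexamer. Both groups have a rise of adenine around 20 nt, with a peak of 48.4% against 59.95% in the polysome table, and a narrow thymine peak 8 to 9 nt before the end, and the lines run together farther than 40 nt from the end.

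Other elements of the end were also counted. A run of 4 or more thymines was found in the last 40 nt of 31.7% and 31.2% of members and of 31.9% and 32.7% of ends with a hexamer. TGTA, the DNA form of the element bound by CFIm, was present in 19.5% and 22.9% of members against 18.3% and 19.9% in the last 40 nt, and in 24.1% and 26.3% against 26.5% and 30.1% in the stretch from 41 to 100 nt before the end. The last base was adenine in 0 of 590 and 0 of 523 members, and in 0.313% and 0.429% of ends with a hexamer. Taken as 3 divided by the number of members, the upper limits are 0.508% and 0.574%. The last base was cytosine in 42.4% and 46.8% of members against 43.3% and 43.7%. At the base before it, adenine stood in 16.6% and 16.4% of distinct member ends with a 3′ UTR of at least 100 nt. At such ends with a hexamer it stood there in 18.7% and 18.9%. How the last base was called next to the poly(A) tail was not given. Its part in the last-base shares was not tested, so they describe called ends only. An adenine-rich last stretch, with 6 or more adenines in 10 nt, was found in 1.69% and 2.29% of members and in 3.24% and 3.11% of ends with a hexamer.

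A smaller group of members had no listed variant, 203 isoforms in the polysome table (34.4%) and 157 in the decay table (30.02%), and 32 and 27 of these held another single-base change of AATAAA. Their last 40 nt were poorer in A and T, with a median of 52.5% and 55% against 62.5% in members with a variant in both tables and 62.5% and 65% at ends with a hexamer. The choice of this group sets that difference in part, since the hexamers and the listed variants it lacks are rich in A and T. Runs of 4 or more thymines were also less frequent there, 21.2% and 23.6%, against 37.2% and 34.4% in members with a variant and 31.9% and 32.7% at ends with a hexamer.

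Among them were ends of replication-dependent histone genes, H2bc11 and H2bc12, which encode histone H2B. They were singled out after their values had been seen. Their last 30 nt are shown because a search for inverted repeats found a stem of 6 base pairs around a loop of 4 nt just before the end, with the stem in capitals.
H2bc11, chr13:22227369-22227827 plus: caaatccaaaGGCTCTtttcAGAGCCacgc
H2bc12, chr13:22220009-22220488 plus: ctagcaccaaaGGCTCTtttaAGAGCCact
These ends lay 19 and 27 nt upstream of the annotated end. H2bc11 had a coverage of 48 and a TE of 0.00173, and H2bc12 a coverage of 13 and a TE of 0.00143, and neither was among the members of the decay table. The same stem was found in the last 40 nt of 3 of 423 distinct member ends of the polysome table and of 0 of 1873 ends with a hexamer. Beside H2bc11 and H2bc12 these were the unnamed isoform chr13:23929026-23929504 minus (coverage 11, TE 0.00172). The stem was taken from H2bc11 and H2bc12, so their part in this count was set by that choice. In the decay table it was found in 0 of 423 distinct member ends and 0 of 2149 ends with a hexamer. Stems of at least 6 base pairs with any sequence and such a loop were in 4.26% and 3.78% of distinct member ends against 2.08% and 2.09%. Another histone gene among the members, H2az2, encodes a variant of H2A made outside S phase, and its end held GATAAA. It had a coverage of 74 with a TE of 0.000841 and a coverage of 198 with a half-life of 8.66.

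Members were more often displaced from the annotated end. Of the members, 75.1% (71.4 to 78.4%) and 72.3% (68.3 to 75.9%) lay within 10 nt of it, against 91.0% (89.9 to 92.0%) and 89.8% (88.6 to 90.9%) of ends with a hexamer. Seen the other way round, the share of isoforms without a hexamer was 11.1% (9.17 to 13.3%) and 12.1% (10.0 to 14.6%) exactly at the annotated end. It was 29.5% and 26.6% over 10 nt upstream of it, and 54.6% and 50.4% over 10 nt downstream of it. At 51 to 100 nt downstream it reached 29 of 44 isoforms (65.9%) and 31 of 47 (66.0%). For new 3′ ends of annotated starts, which lie farther than 100 nt from any annotated end, the share without a hexamer was 41.8% and 37.2%.

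**Figure D3:**
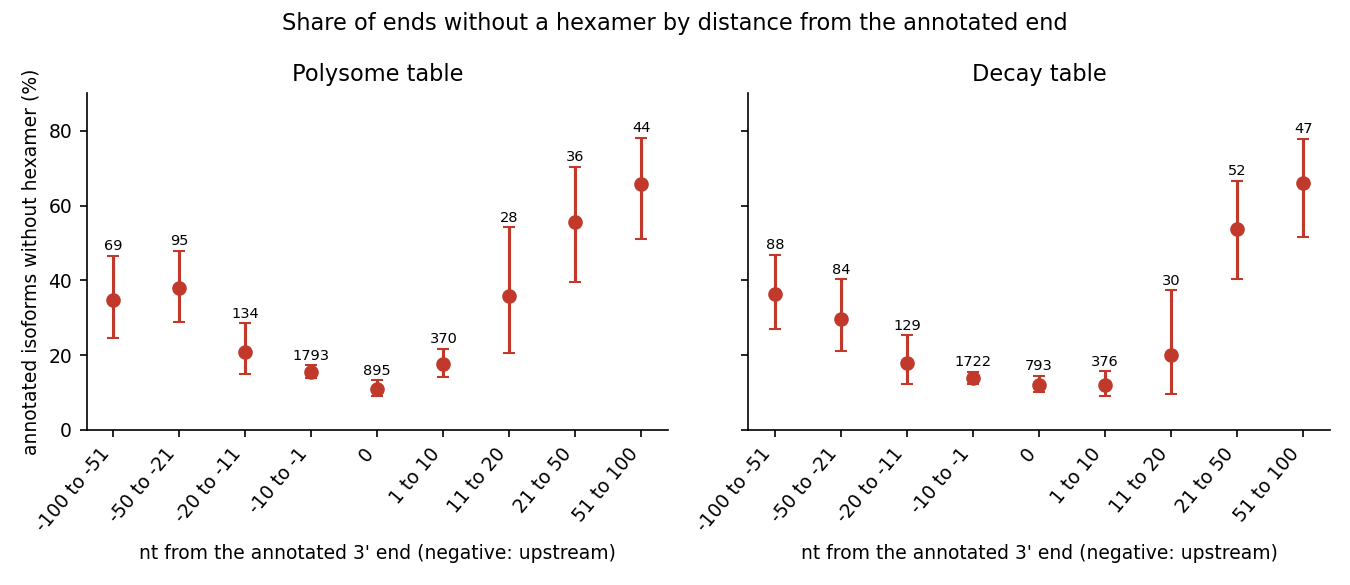
Percentage of annotated isoforms whose last 40 nt hold no hexamer, by the distance of the 3′ end from the annotated end in nt (negative values upstream), with Wilson 95% intervals and the number of isoforms above each point. The share is lowest at the annotated end, 11.1% and 12.1%, and highest 51 to 100 nt downstream, 65.9% and 66.0%.

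Members on either side differed in what they carried. A weaker variant was present in 70.2% and 75.9% of the members within 10 nt of the annotated end and in 60.2% and 68.8% of those over 10 nt upstream. It was present in 38.98% (27.6 to 51.7%) and 36.9% (26.2 to 49.1%) of those over 10 nt downstream. Downstream members had a hexamer 41 to 140 nt before their end in 11 of 43 and 15 of 50 cases with a long enough 3′ UTR (25.6% and 30%), against 11.6% and 15.1% of members within 10 nt. The same shares at ends with a hexamer are not given here, so these do not set members apart. Another listed end with a hexamer lay within 100 nt of 12.3% and 13.7% of the distinct member ends, against 2.62% and 3.77% of the ends with a hexamer. Median TE differed little by position, 0.00083 upstream, 0.000726 within 10 nt and 0.000741 downstream, and so did half-life, 10.9, 10.8 and 11.5.

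The share of members depended in part on the limits of the rule. A window of 30 nt left 20.3% and 19.0% of annotated ends without a hexamer, against 17.0% and 15.7% with 40 nt. Weaker variants were then in 53.5% and 56.6% of members, against 65.6% and 70.0%. A window of 50 nt left 16.1% and 14.8% without a hexamer. Among members with a 3′ UTR of at least 50 nt, 36 of 585 (6.15%) and 35 of 520 (6.73%) had a hexamer that begins 41 to 50 nt before the end, just outside the window. Among ends with a hexamer, 122 of 2874 (4.24%) and 115 of 2798 (4.11%) had their nearest one beginning over 30 nt before the end. Of annotated isoforms with a 3′ UTR of 40 to 49 nt, 5 of 53 and 3 of 51 had no hexamer, and of those with 30 to 39 nt, which the rule leaves out, 2 of 54 and 3 of 55.

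The 3′ UTRs of members were somewhat shorter. The median length was 312 nt (quartiles 169 to 643) and 297 nt (172 to 570) in members and 365 nt (178 to 702) and 357 nt (181 to 677) at ends with a hexamer. Of the members, 43.1% (39.1 to 47.1%) and 40.3% (36.2 to 44.6%) had a 3′ UTR longer than the median with a hexamer. Their 3′ UTRs were also slightly richer in G and C, with a median of 53.2% and 51.8% against 52.2% and 50%. The 5′ UTRs had medians of 124 and 98 nt in members and 115 and 103 nt with a hexamer, so the order differed between the tables.

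Members were less covered than other annotated ends, but the group includes a few highly covered isoforms. Median coverage was 36 and 77 in members and 47 and 100 at ends with a hexamer, and 56.1% (52.1 to 60.1%) and 57.0% (52.7 to 61.2%) of members lay below the median with a hexamer. The libraries were made from bulk cultures, so fewer cells with an isoform and fewer molecules per cell cannot be told apart. A coverage of at least 1000 was reached by 28 members (4.75%) and 45 members (8.60%), against 6.99% and 12.9% of ends with a hexamer. Members held 136253 of 1024178 counts of annotated isoforms in the polysome table (13.3%) and 221408 of 2004301 in the decay table (11.05%). A single unnamed end on chromosome 2 carried a large part of this. In the polysome table chr2:26951688-26962223 minus had a coverage of 23796 and a TE of 0.000828, and in the decay table chr2:26951688-26962169 minus had a coverage of 45636 and a half-life of 12.3. That is 17.5% and 20.6% of the members' coverage, and without it members held 11.2% and 8.97%. Its end lies 38 nt upstream of the annotated one and is shown because it is the most used end without a hexamer, with the variant, which begins 22 nt before the end, in capitals.
chr2:26951688-26962223 minus: ccattcacAGTAAActcttgatcagccact

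TE hardly differed between members and other annotated ends. Over isoforms with a coverage of at least 30 and a value above 0, the median TE was 0.000735 (quartiles 0.000515 to 0.00104) in 339 members and 0.000748 (0.000523 to 0.00107) in 1782 isoforms with a hexamer. Of the members, 51.6% (46.3 to 56.9%) lay below the median with a hexamer. The quartiles overlap almost fully. The median was 0.000726 in members with a weaker variant, 0.000743 in those without one, 0.000752 at ends with AATAAA and 0.000729 at ends with ATTAAA alone. Members with AGTAAA had a median TE of 0.000835 over 67 isoforms, and those with TATAAA 0.000681 over 32.

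Half-life was close as well. Its median was 11 (quartiles 9.30 to 13.5) in 426 members and 10.8 (9.01 to 12.8) in 2347 isoforms with a hexamer, and 47.7% (43.0 to 52.4%) of members lay below the median with a hexamer. Members stood above the upper quartile with a hexamer in 30.05% of cases (25.9 to 34.6%). Members without a listed variant had the longest half-lives among 4 pooled groups of ends, with a median of 11.7 over 123 isoforms of 106 loci. Of these members, 63.4% (54.6 to 71.4%) lay above the median with a hexamer. This subgroup was singled out after the values had been seen. Members with a variant had a median of 10.7, ends with AATAAA 10.7 and ends with ATTAAA alone 10.96. Single variants varied more, up to a median of 12.6 over the 11 members with ACTAAA. With 1 isoform per locus the medians were 11.8, 10.5, 10.8 and 11.03 in the same order. The GC content of the 3′ UTR moved with this grouping, with medians of 53.4%, 51.1%, 50.5% and 49.1%, and its part in the result was not tested beyond a comparison within GC classes, where 61.8% lay above. Compared within 4 classes of coverage, 41.1% of all members lay below the half-life with a hexamer, a lower share than without classes. Decay coverage is pooled over all times after actinomycin D, and its part in this was not tested.

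Longer 3′ UTRs had lower median TE and half-life in both groups, with 1 exception in members. In 3′ UTRs of 40 to 150 nt the median TE was 0.000784 in 74 members of 56 loci and 0.00105 in 416 isoforms with a hexamer, and 68.9% of these members (57.7 to 78.3%) lay below the median with a hexamer of the same class. With 1 isoform per locus the medians were 0.000824 and 0.00108. The 5′ UTRs of these loci had medians of 107 nt in members and 71 nt with a hexamer. Among isoforms with 5′ UTRs of at most 150 nt, 66.7% of 42 members lay below the median with a hexamer. In the next classes members had the higher medians, 0.000959 against 0.000897 at 151 to 300 nt, 0.000734 against 0.000718 at 301 to 600 nt, 0.000653 against 0.000606 at 601 to 1200 nt and 0.000446 against 0.000431 in longer 3′ UTRs. For half-life members had the higher medians in the same classes up to 1200 nt, including the shortest with 11.9 against 11.6, and the lower one beyond, 9.20 against 9.52. The length classes were examined after the values of all members had been seen.

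**Figure D4:**
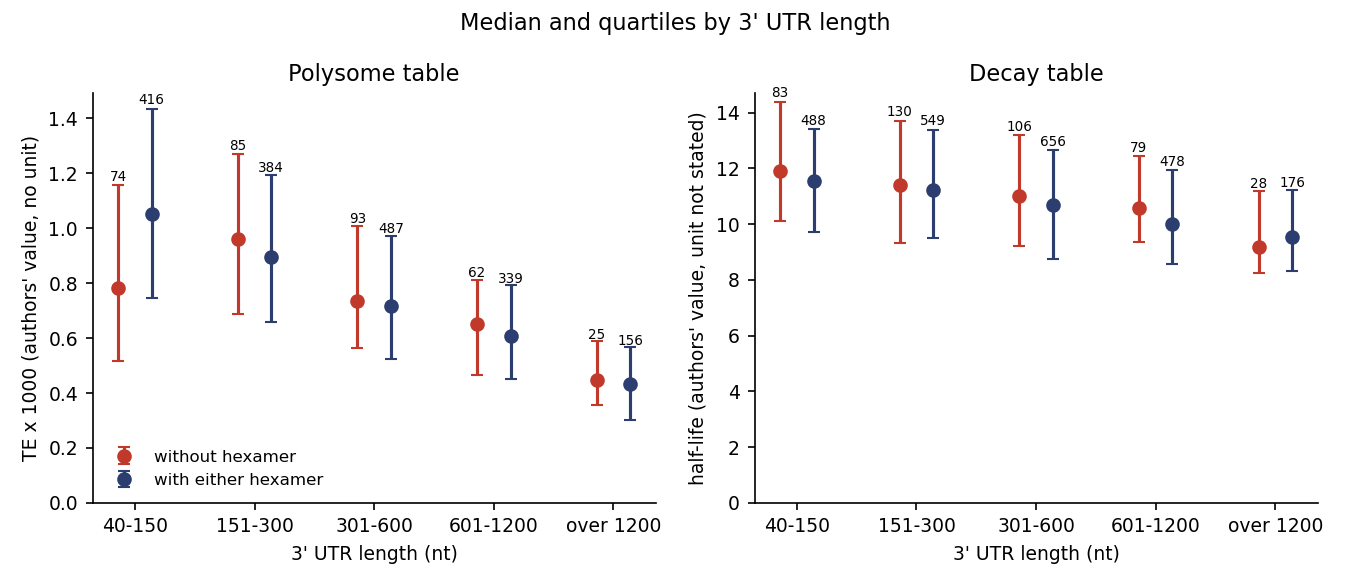
Median (points) and quartiles (bars) of TE times 1000 (left) and of half-life (right, unit not stated) in classes of 3′ UTR length in nt, for annotated isoforms without (red) and with (blue) a hexamer, with the number of isoforms above each bar. In the class of 40 to 150 nt the TE of members is lower, 0.000784 against 0.00105 before multiplication, and in the other classes the points lie close together within wide quartiles.

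Among members with a coverage of at least 100, the 4 lowest TE values came from isoforms with 3′ UTRs of 135 to 3104 nt. The 4 highest came from isoforms with 3′ UTRs of 65 to 266 nt. At a coverage of at least 100 there were 172 members with a TE. The 4 lowest lay between 0.000201 and 0.000284. They included Tcf25, a component of ribosome quality control, with a 3′ UTR of 3104 nt (TE 0.000206), and the kinase gene Pskh1 with 1833 nt (0.000239). Rpsa, a protein of the small ribosomal subunit, had a 3′ UTR of 135 nt and a 5′ UTR of 702 nt (0.000284). Its isoform with a hexamer had the same 5′ UTR length and a TE of 0.000457. The lowest of all, chr15:89172485-89199479 minus, had a TE of 0.000201 and 3′ and 5′ UTRs of 345 and 160 nt. The 4 highest lay between 0.00181 and 0.00234 and had 3′ UTRs of 65 to 266 nt and 5′ UTRs of 18 to 119 nt. Dusp3, a phosphatase of MAP kinases, was one of them, with a TE of 0.00209 and no listed variant. Of the 4 lowest, 2 had a listed variant, and of the 4 highest likewise 2.

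Among 224 members with a half-life at this coverage, Chac1, a glutathione-degrading enzyme induced by cell stress, had the shortest half-life, 1.36. Its end lay 59 nt upstream of the annotated end and held CATAAA. Nop2, a methyltransferase of ribosomal RNA, had 5.82 and Znrd1, a subunit of RNA polymerase I, had 6.48, and chr11:51533917-51541662 minus had 4.71. The longest were chr5:31063877-31065066 minus with 73.3, Rpsa with 23.7, chr10:79540315-79547621 plus with 23.1 and Trir with 22.6. The value of 73.3 lies far above the 95th percentile of the members, 19.9, and rests on a coverage of 157. Sampling ended at 12 h and the unit of half-life is not stated. Whether the longest values lie beyond the last time point therefore cannot be told. All 4 of the shortest and 3 of the longest had a listed variant.

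Within loci that used both kinds of end, the hexamer end was usually the more used one. Of 83 loci in the polysome table that listed annotated ends of both kinds, 57 had more coverage at the end with a hexamer (68.7%, 58.1 to 77.6%), and in the decay table it was so in 70 of 91 loci (76.9%, 67.3 to 84.4%). The member ends held a median of 21.6% and 17.9% of the annotated coverage of these loci. At most loci with a member, 305 of 388 (78.6%) and 297 of 388 (76.5%), all listed annotated ends were without a hexamer, so no such comparison could be made there.

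Members and hexamer isoforms of the same locus were also compared as pairs. With a coverage of at least 30 on both sides, 43 loci had a pair, and the member had the lower TE in 18 (41.9%, 28.4 to 56.7%), with a median log2 ratio of member over hexamer isoform of 0.04. At a coverage of at least 15 the member had the lower TE in 25 of 68 loci (36.8%, 26.3 to 48.6%, median log2 ratio 0.09), and at a coverage of at least 60 in 13 of 26 (50%, 32.1 to 67.9%). At a coverage of at least 30, members that ended upstream of the hexamer end behind the same stop codon, with the shorter 3′ UTR, had the lower TE in 7 of 20 loci (median log2 ratio 0.13). Members that ended downstream had it in 9 of 15 loci (−0.08). In 37 of the 43 pairs the TE values differed by less than 1.5 times, and in 5 by more than 2 times. For half-life 73 loci had a pair, and the member had the shorter one in 27 (37.0%, 26.8 to 48.5%), with a median log2 ratio of 0.14. At coverage minimums of 15 and 60 the member had the shorter half-life in 41.2% (31.3 to 51.8%) and 30.6% (19.5 to 44.5%) of loci. Half-lives differed by less than 1.5 times in 53 of the 73 pairs and by more than 2 times in 7. At a coverage of at least 30 the member's was shorter in 10 of 28 loci with the member upstream and in 13 of 30 with the member downstream. Members were the less covered isoform in 69.8% and 78.1% of these pairs.

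**Figure D5:**
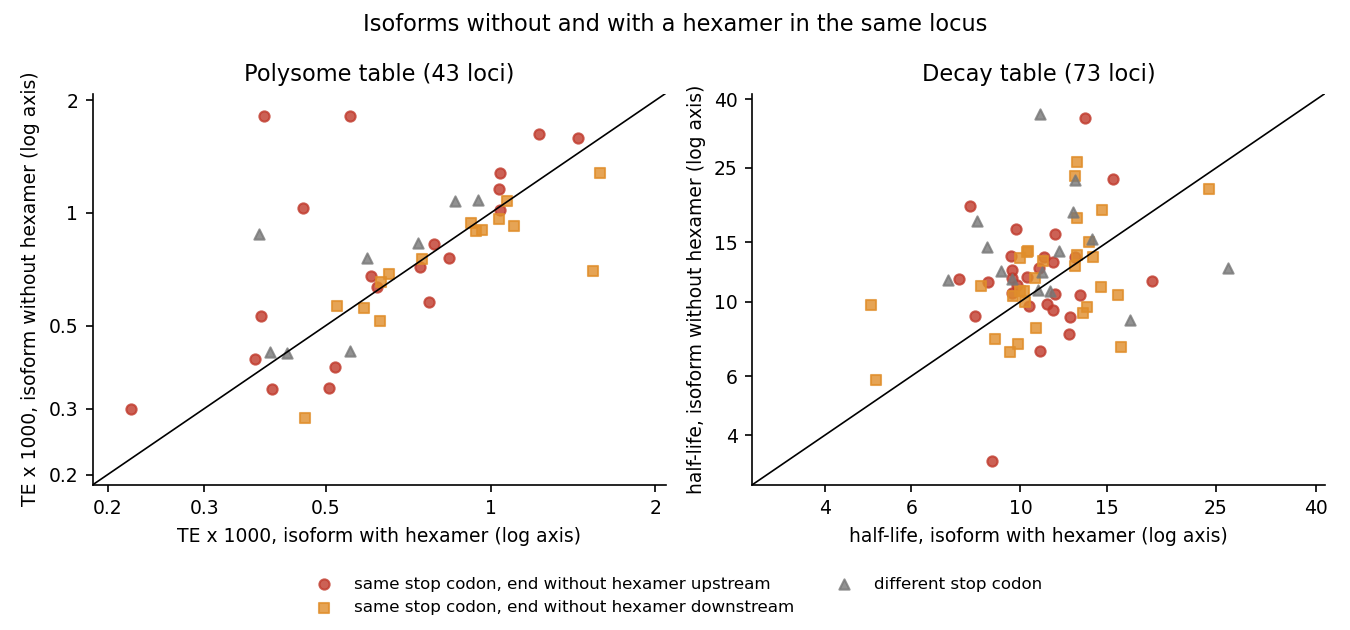
TE times 1000 (left) and half-life (right) of the isoform without a hexamer, on the vertical axis, against an isoform with a hexamer of the same locus, on the horizontal axis, both on log axes, with the line of equal values. The points scatter on both sides of the line, with 18 of 43 below it for TE and 27 of 73 below it for half-life.

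Among the 6 pairs with the highest lower coverage in the polysome table, the member had the lower TE in 3. The isoform on chromosome 3 shown above, which ends 2057 nt beyond its partner and behind another stop codon, had a TE of 0.000428 against 0.000553 and a half-life of 10.7 against 11.5. The isoform chr7:29886368-29894479 minus, 47 nt longer than its partner, had a TE of 0.000901 against 0.000967. The member chr15:99290867-99306488 plus had a 3′ UTR of 109 nt against 1550 nt in its partner, and a TE of 0.00181 against 0.000555. Mvk, mevalonate kinase, had a TE of 0.000758 at an end behind another stop codon, against 0.000595. The isoform chr19:5780348-5781737 minus had a TE of 0.00109 against 0.00095 and a half-life of 15.3 against 13.98, and it does not overlap its partner, to which other isoforms of the locus link it.

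In the decay table the member had the shorter half-life in 2 of the 6 such pairs. Pdlim3, a protein of the muscle Z-disc, had a half-life of 9.71 at an end without a hexamer 131 nt upstream, against 10.4. Tnni1, the slow skeletal muscle form of troponin I, had 14.1 at an end with AGTAAA behind another stop codon, against 12.0 at its main end, with coverages of 928 and 36917. The isoform chr5:115436575-115438993 minus, with AGTAAA and TATAAA, had 13.1 against 11.6, and chr7:29886374-29894479 minus had 15.04 against 13.8.

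Rpsa, the fifth of these pairs in the polysome table, has 2 ends behind the same stop codon. They are 70 nt apart and are shown because the main end has AATAAA, in capitals, and the longer one no listed variant.
Rpsa without hexamer, chr9:119956854-119960695 plus: tggctatacaacagaggcatggtcctactg
Rpsa with hexamer, chr9:119956854-119960625 plus: atggaaggaaAATAAAgttgctaaaagctg
The longer isoform had a coverage of 253 and a TE of 0.000284, against 8829 and 0.000457 for the main one. In the decay table it had a coverage of 291 and a half-life of 23.7, against 17576 and 12.9. The log2 ratios of longer over main isoform were −0.69 for TE and 0.87 for half-life.

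By gene, a named gene had at least 1 member end in 222 of 1252 cases (17.7%). Of the named genes of ribosomal proteins 5 of 20 had one, of the respiratory chain 4 of 33, of the sarcomere 4 of 17, of the proteasome 0 of 10 and of histones 3 of 4. Of the cleavage and polyadenylation factors 1 gene was named and 0 had a member end. In the respiratory chain the member end was the main one in Ndufs8, a subunit of complex I, whose most covered isoform held CATAAA and AAGAAA at a 3′ end exactly at the annotated one and had a coverage of 2177 with a TE of 0.000992. In the decay table its most covered isoform had a coverage of 7459 and a half-life of 14.5. Ndufa7, another subunit of complex I, had AATATA, a coverage of 1054 with a TE of 0.00171 and a coverage of 2626 with a half-life of 14.02. The ribosomal protein Rpl7a had AATATA and ACTAAA at its end and a coverage of 1392 with a half-life of 14.6 in the decay table. The member ends of Rpsa, Rpl26 and Rps12 had coverages of 291, 64 and 25 there. Rplp2 had a member end in the polysome table only, with a coverage of 14. That end, at chr7:141178820, lies far beyond the Rplp2 end with AATAAA shown above, which had a coverage of 12873. The counts by gene take no account of coverage. In the sarcomere list the genes with a member end were Acta1, Myh1, Tnnc1 and Tnni1. Myh1, a fast myosin heavy chain, had its member end at the annotated end, with GATAAA and a coverage of 105 in the decay table. Acta1, skeletal α-actin, had a member end 40 nt upstream of the annotated one with a coverage of 29 and a TE of 0.00063, against 28298 and 0.000633 at its main end with ATTAAA. Tnni1 had member ends with coverages of 928 and 606 in the decay table, with half-lives of 14.1 and 18.6.

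The tables listed partly different isoforms. In all, 275 of the 571 distinct member ends and 208 of the 905 isoforms were listed in both. Only identical positions were counted as the same, so ends or starts a few nt apart count as different. The same overlap of ends with a hexamer is not given here, so these counts do not set members apart. A value was used in both tables for 153 members, out of 590 and 523 listed. For isoforms with a hexamer it was 933, out of 2874 and 2798 listed. Of the 153 members, 50 lay above both medians of ends with a hexamer and 46 below both. The matching counts for isoforms with a hexamer are not given here.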

How the data were processed

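TIF-seq2 libraries of mouse myotubes (6 from polysome fractions, 12 after actinomycin D) had been pooled by the authors into 1 table per assay. Tools named in the submitters' processing notes are STAR 2.5.3a, UMI-tools 0.5.4, cutadapt 1.16 and bcl2fastq 2.20.0, with build GRCm39. The clustering of ends and the formulas of both derived values were not given in the sources used here. Coverage in the deposited tables is a whole-number count per isoform, from 11 up in the polysome and 21 up in the decay table, with no column per library, so depth per library is unknown. TE and half-life are used as the authors deposited them, and values below 0 or missing were left out. In the deposited class of annotated transcripts both ends lie within 100 nt of an annotated one.

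From the deposited 3′ UTR sequences the last 40 nt were searched, on the transcript strand, for AATAAA and ATTAAA and for 11 weaker variants. These change AATAAA at base 1 (TATAAA or CATAAA or GATAAA), base 2 (AGTAAA or ACTAAA), base 3 (AAGAAA), base 4 (AATGAA) or base 5 (AATATA or AATACA or AATAGA), and TTTAAA changes ATTAAA. The search recovered signals planted in random sequences cleared of other matches, which checks the code only and not the calls at real ends. TE and half-life were compared at a coverage of at least 30. Isoforms were joined into a locus where they shared an end, or overlapped and shared 20 nt before the start or after the stop codon. Python 3.11.15, pandas 2.3.3 and statsmodels 0.14.6 were used. No test was run, since the tables hold no value per replicate. Shares carry Wilson 95% intervals, apart from the upper limits for a last base of adenine, which are 3 divided by the number of members. Isoforms of a locus share sequence and are not independent.

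Named members are the 12 in both tables with the highest lower coverage (1 of them is not reported here), the 4 highest and lowest values at a coverage of at least 100, and the 6 most covered pairs per table. Gene names rest on 25 nt matches to RefSeq promoter windows (GRCm38.p6, from 250 nt before to 50 nt after the start), and carrying names over shared 3′ ends was added later. The members and lists were chosen with earlier results of these data known. Alternatives were window length, 1 isoform per end or locus, nearness to the annotated end, AATAAA alone, coverage, variant lists and matched classes.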

Additional observations from a re-analysis of the deposited data

How the results depend on the processing

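Of 124 values recomputed under other settings, 95 stayed within the interval of the value reported. The shares of coverage held without the most covered member have no interval and are counted among those that did not. A window of 30 nt left 20.3% and 19.0% of annotated ends without a hexamer (polysome and decay table), and weaker variants were then in 53.5% and 56.6% of members against 14.1% and 15.1% of ends with a hexamer, with 65.7% and 67.1% of members below the median A+T share. A window of 50 nt gave variants in 71.0% and 74.8% of members against 19.0% and 21.3%, and 54.2% of decay members below the median A+T share. With 1 isoform per 3′ end, 18.4% of polysome ends were members and 20.0% of decay ends with a hexamer held a variant. With 1 isoform per locus, members made up 15.7% and 13.6%, and 75.2% of decay members held a variant. Within 10 nt of the annotated end members made up 14.5% and 13.1%, and 70.2% and 75.9% of them held a variant. Counting every other single-base change gave 25.3% and 26.9% at ends with a hexamer, and starts 10 to 30 nt before the end gave 12.2% and 13.3%. Compared within coverage classes, 41.1% of members lay below the median half-life. The cause was not tested, apart from what window and list length set by construction. TE stayed between 49.3% and 53.4% in 11 alternatives. Alternatives added after seeing the data left the TE share in short 3′ UTRs at 65.7% to 69.6% and the half-life share of members without a listed variant at 61.6% to 66.7%. No paired analysis was possible because the tables hold no column of a single library, so leaving out a replicate was not possible either. Coverage of 30 counts and single pooled values limit what TE and half-life can show.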
